A study of Homo sapiens with 21 samples.

Results

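MME encodes CD10, also called neprilysin, a zinc peptidase anchored in the cell membrane with its active site outside the cell. It is 1 of the 17691 genes in the table of transcript levels of MM.1S, a human multiple myeloma cell line grown from peripheral blood. MME was selected on its own TPM values, because its row was far higher with the drug pomalidomide and in the libraries labelled Aiolos knockdown, and was not higher with the hairpin against ARID2. Because its whole row was used, the levels and differences of MME are described throughout and carry no test.

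The 21 mRNA libraries form 7 groups of 3. Wild-type MM.1S cells were either left untreated or given the drug at 1 µM, with harvest at 24, 48 and 72 h. The other 3 groups, none of them given the drug, are labelled control knockdown, ARID2 knockdown and Aiolos knockdown. Cells of the last 2 were transduced for 72 h with lentivirus carrying a short hairpin RNA. For the control knockdown, neither hairpin nor duration is given in the sources used here. The drug times have no untreated cells of their own, so time in drug and time in culture cannot be told apart. All cells are of 1 line, and how many hairpins were used per gene is not given here.

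CD10 is known as the common acute lymphoblastic leukaemia antigen. Normal B cells carry it as precursors in the marrow and again in the germinal centre, and lose it by the plasma cell stage, from which myeloma arises. Its enzyme cuts short signalling peptides such as substance P, enkephalins, natriuretic peptides and endothelin, and also amyloid beta. Pomalidomide acts through the ubiquitin ligase receptor cereblon (CRBN), which then has the zinc finger proteins Ikaros (IKZF1) and Aiolos (IKZF3) degraded. ARID2 belongs to the PBAF form of the SWI/SNF chromatin remodellers.

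MME lies on chromosome 3 from 155024124 to 155183729 on the plus strand (GRCh38, GENCODE 29, ENSG00000196549.10). The annotation gives it 18 transcripts, 14 of them protein coding, with 15 different start positions. The table holds 1 value per gene, so these starts and transcripts were not separated. MME-AS1, an antisense RNA on the minus strand from 155158370 to 155183285, lies wholly within MME. The library kit does not mark strand, so reads from the 2 genes could not be told apart where their exons overlap.

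Because Ikaros and Aiolos bind DNA through a core of GGGAA, the sequence before the start of MME was searched for these letters on both strands. RefSeq's promoter table (GRCh38.p14, 250 bases before to 50 after a start) has 4 windows for MME. The stretch below runs from the beginning of the first window to the base before the first exon that GENCODE places there, at chr3:155079422-155079646 on the plus strand. It lies within an intron of the transcript that starts furthest upstream. The capitals mark the GGGAA matches.

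MME promoter stretch: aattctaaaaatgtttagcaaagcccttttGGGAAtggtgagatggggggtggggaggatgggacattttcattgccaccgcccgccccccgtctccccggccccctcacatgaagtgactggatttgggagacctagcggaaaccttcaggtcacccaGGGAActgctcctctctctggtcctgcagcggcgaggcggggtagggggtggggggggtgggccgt

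Both matches are on the plus strand, 220 and 91 bases before the start site of that window, and TTCCC, the same core on the other strand, has no match in the stretch. Counting both strands over the whole 300 bases, the first and the fourth window held 2 matches each and the other windows none. Of 35116 promoter windows in the table, 65.0% held at least 1 match and 29.8% held at least 2. A match is only a run of letters, and binding was not measured here.

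Values are in TPM, a length-scaled share of each library's transcripts, so a level can move because other genes moved. Between 14158 and 15264 genes were above 0, and all listed values of a library added up to 951444 to 968652 TPM. TPM keeps no record of reads, so the depth behind each value is unknown. On log2(TPM + 1), libraries of a group correlated across genes at 0.996 to 0.998 (21 pairs), against 0.955 to 0.993 between groups (189 pairs). The 3 libraries of a group are described by the submitters as biological replicates, with no word on cultures or days, so p-values reflect only the spread among the deposited libraries.

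The line was checked for the presence of plasma cell markers, and the targeted genes against their labels. SDC1, the plasma cell surface proteoglycan CD138, stood between 601 ± 14.5 TPM in the control knockdown and 926 ± 42.4 TPM at 72 h (mean ± SD, n = 3 here and below). All 18 genes of the plasma cell list had a value, and no member was at 0 throughout a group. The markers did not change alike. At 72 h against untreated cells SDC1 (0.43), CD38 (0.67) and MZB1 (0.8) rose, TNFRSF17 (-0.85) and PRDM1 (-0.14) fell and XBP1 did not pass (-0.01). In the libraries labelled Aiolos knockdown, against the control knockdown, SDC1 (0.24) and CD38 (0.64) rose. TNFRSF17 (-1.34), PRDM1 (-0.88), XBP1 (-0.74) and MZB1 (-0.79) fell there (log2 differences). IRF4 and SLAMF7 are given below. ARID2 was 25.6 ± 0.322 TPM in the control knockdown and 12.2 ± 0.191 TPM with its hairpin, lower by 1.01 ± 0.07 SE (log2 difference -1.01, limma adjusted p = 8.13e-11). IKZF3, in contrast, was 81.3 ± 2.19 TPM in the control knockdown and 129.9 ± 10.4 TPM where the label says Aiolos knockdown. The transcript of the targeted gene thus rose (log2 difference 0.67 ± 0.05 SE, limma adjusted p = 1.92e-10). IKZF3 also rose in the ARID2 knockdown against the control knockdown (0.55 ± 0.05, limma adjusted p = 5.09e-09), and at 72 h of drug against untreated cells (0.21 ± 0.05). No protein was measured. At 72 h of drug IKZF1 stood at 73.5 ± 4.02 TPM against 46.0 ± 1.62 TPM untreated, and CRBN at 20.3 ± 0.514 against 16.7 ± 1.31 TPM. The 3 libraries whose label says Aiolos knockdown are called labelled Aiolos because their IKZF3 transcript was not lower, and directions drawn from them rest on the label.

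MME was barely expressed in untreated cells, at 5.68, 5.59 and 4.76 TPM. After 24 h of pomalidomide it stood at 180.3, 194 and 195 TPM. After 48 h the libraries gave 391, 373 and 360.2 TPM, and after 72 h they gave 378, 359 and 369.6 TPM. Every drug library was thus far above every untreated one. Libraries that all lay above every untreated one were found for 36.2% of genes tested at 24 h, 44.2% at 48 h and 48.5% at 72 h. The ratio of the mean levels to untreated cells went from 35.5 at 24 h to 70.2 at 48 h, with 69.0 at 72 h. The smallest ratio that any drug library makes with any untreated library was 31.7.

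In the hairpin groups the control knockdown stood at 11.3, 10.0 and 10.9 TPM. The ARID2 knockdown gave 3.65, 3.36 and 4.65 TPM, the lowest levels of MME in the series. The labelled Aiolos libraries gave 161, 156 and 178 TPM. These 3 groups did not overlap, as was so for 39.0% of genes in the direction higher in labelled Aiolos than in control libraries and for 32.9% in the direction lower in the ARID2 knockdown. In a bulk library, fewer cells with the transcript and less transcript per cell cannot be told apart. The labelled Aiolos mean was 15.3 times that of the control knockdown and 42.5 times that of the ARID2 knockdown. The ARID2 knockdown mean was 0.361 times that of the control knockdown, but 0.727 times that of untreated cells, since the control knockdown itself lay above the untreated cells.

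**Figure D1:**
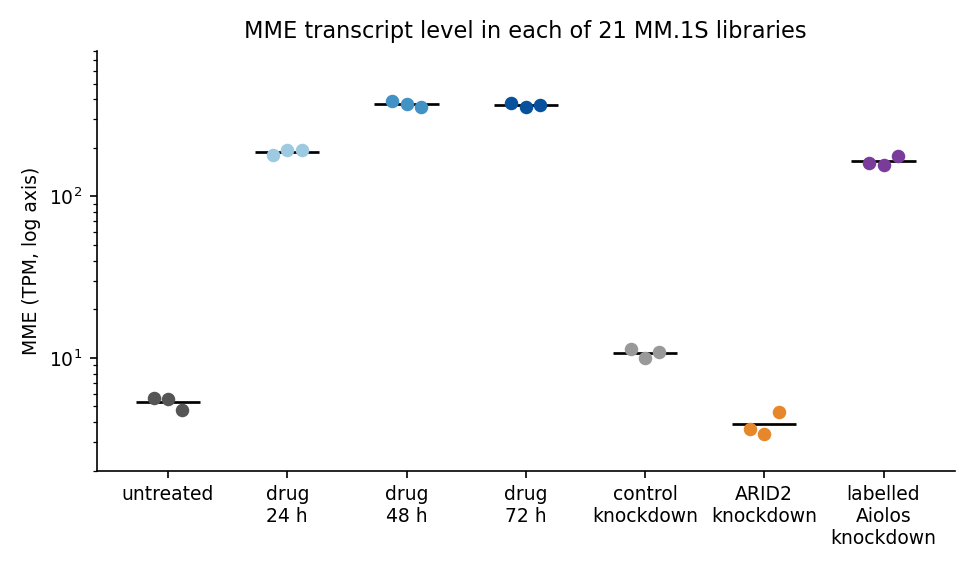
MME level in TPM on a log axis (vertical) in each library of the 7 groups (horizontal); points are the 3 libraries and bars their mean. The untreated, control knockdown and ARID2 knockdown libraries lie between 3.36 and 11.3 TPM, and the drug and labelled Aiolos libraries between 156 and 391 TPM.

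From lowest to highest the groups were the ARID2 knockdown (3.89 ± 0.673 TPM), untreated (5.34 ± 0.506), control knockdown (10.8 ± 0.648), labelled Aiolos (165 ± 11.9), drug at 24 h (189.8 ± 8.22), 72 h (369 ± 9.69) and 48 h (375 ± 15.7). Only the last pair overlapped, with 378 TPM as the highest library at 72 h and 360.2 TPM as the lowest at 48 h. Other neighbours in this order were close without overlapping. The highest ARID2 knockdown library (4.65 TPM) lay just under the lowest untreated one (4.76 TPM). The highest labelled Aiolos library (178 TPM) lay just under the lowest at 24 h (180.3 TPM). Libraries of a group differed most in the ARID2 knockdown, with a coefficient of variation of 17.3%, and least at 72 h, with 2.63%.

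These levels moved MME across much of the expressed genome. Among the 12559 genes tested, which had at least 1 TPM in at least 3 libraries, 24.6% had a lower mean than MME in untreated cells and 20.2% in the ARID2 knockdown. In the control knockdown 35.7% were lower. In the labelled Aiolos libraries 93.7% were lower, at 24 h of drug 94.5%, and at 48 and 72 h 97.7% and 97.5%. MME ranked 9467th by mean level in untreated cells and 287th at 48 h.

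On the log2(TPM + 1) scale most of the difference from untreated cells was there at 24 h, with 4.91 against 5.89 at 48 h. In TPM the difference from the untreated mean was 184 at 24 h and 369.5 at 48 h. MME was higher at 48 h than at 24 h by 0.98 ± 0.08 (SE) on the log2(TPM + 1) scale, with means of 375 and 189.8 TPM, and the libraries did not overlap. Between those times 32.1% of genes tested passed as higher, and 170 genes had a larger difference than MME. Between 48 and 72 h the difference of MME was -0.02 ± 0.08 and the libraries overlapped, while 48.0% of genes tested passed in either direction. The mean at 24 h was 50.6% of that at 48 h.

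The 2 groups that serve as baselines were not alike in MME. It was higher in the control knockdown than in untreated cells by 0.89 ± 0.08, the mean levels stood in a ratio of 2.01, and the libraries did not overlap. Of all genes tested, 17.3% passed as higher in this comparison, and 131 genes had a larger difference than MME. Transduction, the hairpin and time in culture cannot be told apart here.

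Against untreated cells the log2(TPM + 1) difference of MME was 4.91 at 24 h, 5.89 at 48 h and 5.87 at 72 h (SE 0.08 each). At 24 and 48 h LAMB3, a laminin chain, was the 1 gene with a larger difference (5.04 and 5.99), and at 72 h MME was first, ahead of HSD11B1 (5.46), an enzyme that regenerates cortisol. In the labelled Aiolos libraries against the control knockdown the difference was 3.82 ± 0.08, behind the keratin KRT15 (4.53) and FRMD3 (4.07). In the ARID2 knockdown against the control knockdown it was -1.27 ± 0.08, with 196 genes lower still. Because MME was chosen for these contrasts, the ranks describe the choice. Of all genes tested, 35.1%, 43.8% and 48.1% passed as higher at 24, 48 and 72 h and 31.0%, 34.8% and 31.6% as lower. In the labelled Aiolos libraries 37.2% passed as higher and 30.7% as lower, and in the ARID2 knockdown 33.1% and 29.2%.

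**Figure D2:**
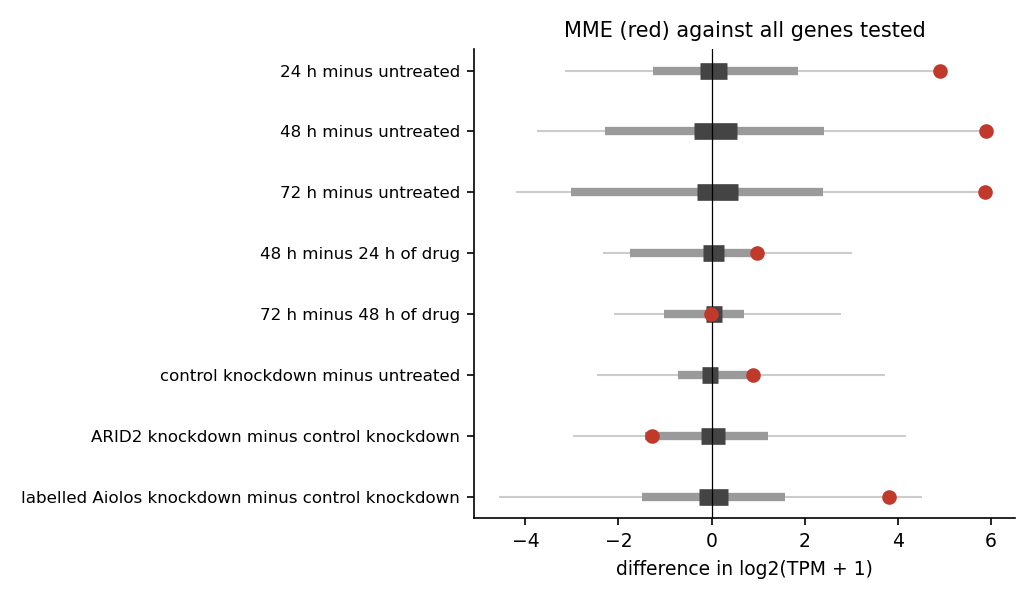
Difference in log2(TPM + 1) for MME (red point, bar ± 1 SE) in 8 comparisons (rows), over the spread of all 12559 genes tested: thin line, full range; grey bar, 1st to 99th percentile; dark bar, middle 50%. MME is at or next to the upper end at all 3 drug times (4.91, 5.89 and 5.87) and near 0 between 48 and 72 h (-0.02).

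The pattern that chose MME was counted over all genes, as a description. Passing as higher at all 3 drug times and in the labelled Aiolos libraries, without passing as higher in the ARID2 knockdown, was met by 907 genes, or 7.22% of those tested. With a difference of at least 1 on the log2 scale in all 4 comparisons, 45 genes were left (0.358%). Of these, 12 genes (0.0955%) were also lower in the ARID2 knockdown. MME is in all 3 counts because it was chosen for this pattern, and nothing is read from its place there. The others were AMOTL2, AMPD3, CTSZ, F2RL3, LGI2, MYCL, NFIX, SCN9A, SECTM1, SH3BP5 and TMEM86A. LGI2, a secreted protein of neurons, stood at 28.0 ± 0.269 TPM in untreated cells, 302 ± 13.6 at 72 h, 16.0 ± 1.01 in the control knockdown, 6.21 ± 0.383 in the ARID2 knockdown and 64.0 ± 2.12 in the labelled Aiolos libraries. CTSZ, the lysosomal peptidase cathepsin Z, stood at 19.1 ± 1.26, 79.5 ± 6.30, 29.6 ± 2.53, 10.0 ± 1.25 and 74.5 ± 8.31 TPM in the same groups. The drug times share untreated libraries, and both hairpin comparisons share the control knockdown, so these conditions are not independent.

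The genes most like MME were ranked by Pearson's r of log2(TPM + 1) over the 21 libraries, among 10555 genes with a mean of at least 5 TPM in some group. The libraries of a group share their condition, so r describes the 7 groups more than 21 separate points. SCN9A, the voltage-gated sodium channel Nav1.7 of pain neurons, came first (r = 0.988). It stood at 15.0 ± 0.445 TPM in untreated cells, 45.4 ± 1.70 at 24 h, 68.8 ± 4.16 at 48 h and, at 72 h, 71.9 ± 0.958. Among the hairpin groups it was 14.3 ± 0.891 in the control knockdown, 9.72 ± 0.815 in the ARID2 knockdown and 47.9 ± 4.94 in the labelled Aiolos libraries. SCN9A was therefore low, high and lowest in the same groups as MME, over a smaller range.

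ST14, the membrane serine protease matriptase, followed (r = 0.985), at 227 ± 5.61 TPM in untreated cells and 528 ± 9.71 at 48 h. GALNT10, a glycosyltransferase of the Golgi, and SLC25A24, a mitochondrial carrier, both had r = 0.980. MFSD1, a lysosomal transporter (0.978), ANXA11, an annexin (0.975), CARD6 (0.975), KLF5, a zinc finger transcription factor (0.974), FAM13A (0.972) and RSPH4A, a part of ciliary radial spokes (0.971), completed the first 10. The next gene also had r = 0.971, and 336 genes (3.18%) had r of at least 0.9. Of the 10, CARD6 had the largest difference from untreated cells at 72 h, 3.33 against 5.87 for MME. The genes most opposite to MME were DCPS, which degrades mRNA caps (-0.983), and the mitochondrial proteins SUCLG1 (-0.980) and FDX1 (-0.976). DCPS stood at 63.6 ± 2.97 TPM in untreated cells, 21.5 ± 2.12 at 72 h and 29.5 ± 1.88 in the labelled Aiolos libraries.

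**Figure D3:**
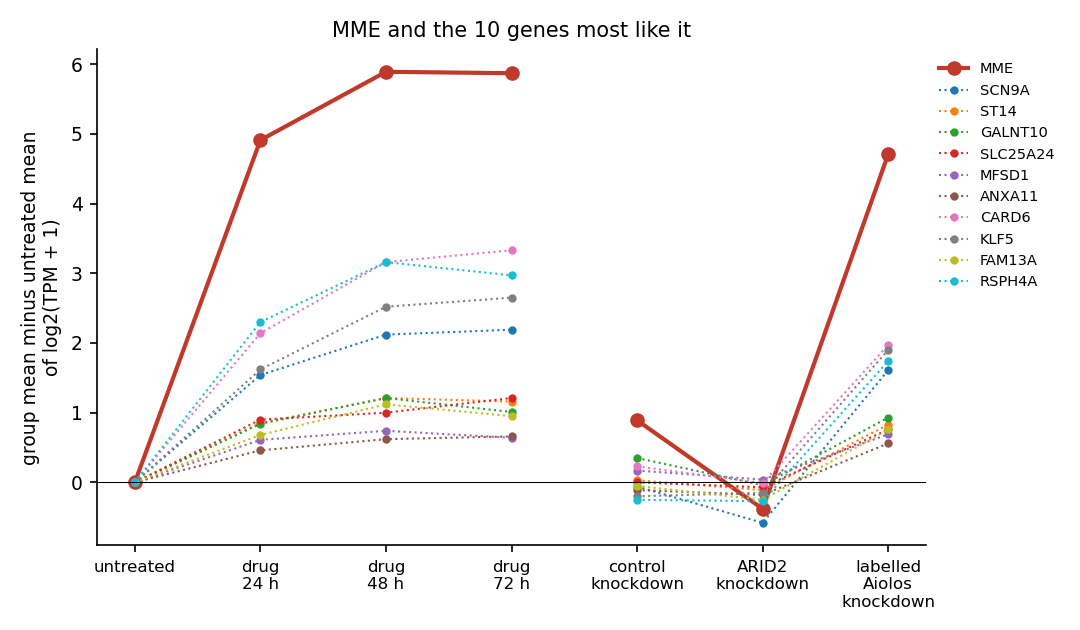
Group mean of log2(TPM + 1) minus the untreated mean (vertical) in the 7 groups (horizontal) for MME (solid line) and the 10 genes with the highest r with it (dotted lines). MME reaches 5.89 at 48 h and 4.71 in the labelled Aiolos libraries, and each of the 10 stays at 3.33 or below.

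The close relatives of MME did not share its levels. MME belongs to the M13 peptidases, with MMEL1, the endothelin converting enzymes ECE1 and ECE2, ECEL1, PHEX and the Kell blood group protein KEL. Of these ECE1 and ECE2 were tested, MMEL1 was not analysed here, and ECEL1, PHEX and KEL had group means of at most 0.124 TPM. ECE1, which activates endothelin, fell at 72 h from 58.6 ± 1.63 to 45.4 ± 4.02 TPM (-0.36 ± 0.05, limma adjusted p = 2.14e-06). It was higher in the labelled Aiolos libraries, at 96.5 ± 5.35 against 61.0 ± 1.11 TPM (0.65 ± 0.05, limma adjusted p = 7.95e-10). ECE2 was lower than in untreated cells at all 3 drug times (-0.86, -0.86 and -0.43) and lower in the labelled Aiolos libraries (-0.54 ± 0.11, limma adjusted p = 0.000277). In the ARID2 knockdown, where MME was low, ECE2 rose from 7.54 ± 0.555 TPM in the control knockdown to 11.2 ± 0.575 TPM. That level was still below the 12.9 ± 0.531 TPM of untreated cells. The control knockdown itself lay below untreated cells in ECE2 (-0.7 ± 0.11).

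Other peptidases and ectoenzymes, not all of them at the cell surface, went in both directions. Of 29 listed, 21 were tested, and at 72 h 11 rose and 5 fell, with a median of 0.15, equal to that of all genes tested. Over all genes 48.1% passed as higher and 31.6% as lower, so these counts were near the background. BACE1, the beta-secretase that starts the release of amyloid beta, rose from 2.86 ± 0.239 to 13.4 ± 1.02 TPM (1.90 ± 0.09), and its paralogue BACE2 fell (-0.85 ± 0.12). Among listed peptidases found mainly inside the cell, neurolysin (NLN) rose by 1.11 and thimet oligopeptidase (THOP1), a related enzyme, fell by 1.04. In the labelled Aiolos libraries 9 of the 21 rose and 7 fell, also near the 37.2% and 30.7% of all genes. ADAM8, a membrane metalloprotease, fell there by 1.32 ± 0.05 although it rose at 72 h (0.45 ± 0.05), and ENPP1, a surface nucleotide pyrophosphatase, rose by 0.89 ± 0.11. The other surface peptidases that mark leukocytes, ANPEP (CD13) and DPP4 (CD26), reached group means of at most 0.455 and 0.446 TPM and were not tested.

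Genes for the peptides that neprilysin cuts mostly had no value or were too low to test. Of 21 listed, 12 had a value and 4 were tested. APP, the precursor of amyloid beta, rose at 72 h from 134 ± 0.178 to 250.4 ± 6.13 TPM (0.90 ± 0.03). It rose in the labelled Aiolos libraries (0.49 ± 0.03) and fell in the ARID2 knockdown from 129 ± 0.696 to 56.9 ± 0.403 TPM (-1.16 ± 0.03), the same directions as MME. NPPC, the precursor of C-type natriuretic peptide, fell at 72 h from 10.6 ± 0.363 to 0.905 ± 0.334 TPM (-2.62 ± 0.10) but rose in the labelled Aiolos libraries from 7.88 ± 0.244 to 20.8 ± 1.55 TPM (1.29 ± 0.10). ADM, adrenomedullin, was higher than in untreated cells at 24 h (0.24 ± 0.05) and lower at 48 h (-0.5 ± 0.05) and 72 h (-0.96 ± 0.05). It fell in the labelled Aiolos libraries (-0.35 ± 0.05). NPPA did not pass in either comparison.

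Receptors of such peptides were tested in 4 of 21 cases, and all 4 rose at 72 h. CALCRL, the receptor chain shared by adrenomedullin and CGRP, rose the most, from 0.202 ± 0.178 to 7.57 ± 0.879 TPM (2.84 ± 0.13). It did not pass in the labelled Aiolos libraries (-0.23 ± 0.13, limma adjusted p = 0.117), except with quantile normalization (-0.33, adjusted p = 0.0281). CALCRL was below 1 TPM in untreated cells and so entered the fit only through other groups. Its place among the 4 is not support for a change of the list. The somatostatin receptor SSTR3 rose at 72 h (1.33 ± 0.16) and fell in the labelled Aiolos libraries (-0.60 ± 0.16). NPR2, the receptor of C-type natriuretic peptide, rose in both (0.96 ± 0.11 and 1.24 ± 0.11), and VIPR1, of vasoactive intestinal peptide, rose at 72 h (0.70 ± 0.09). At 72 h 48.1% of all genes passed as higher, which is the background for these counts.

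The short tail of CD10 inside the cell is known to bind the kinase LYN with PI3K, and the membrane linkers of the ezrin family. At 72 h LYN rose by 0.87 ± 0.06, and PIK3R1 by 0.21 ± 0.07. PIK3R1 no longer passed after median-of-ratios scaling (0.07, adjusted p = 0.361) or quantile normalization (0.14, adjusted p = 0.0577). EZR and RDX fell at 72 h (-0.45 ± 0.04 and -0.54 ± 0.08) and in the labelled Aiolos libraries (-0.59 ± 0.04 and -1.13 ± 0.08). MSN, also of the ezrin family, was higher at 24 and 48 h (0.32 ± 0.03 and 0.29 ± 0.03). It did not pass at 72 h (0.05 ± 0.03) and fell in the labelled Aiolos libraries (-0.23 ± 0.03).

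CD10 marks B cell precursors, so other genes of that stage were read beside it. Of 26 listed, 11 were tested, and at 72 h 5 rose and 5 fell around a median of -0.05, beside 48.1% and 31.6% of all genes. VPREB1, a chain of the surrogate light chain of the pre-B cell receptor, stood at 0.136 ± 0.236 TPM in untreated cells, 9.34 ± 1.53 TPM at 72 h and 0.292 ± 0.292 TPM in the labelled Aiolos libraries. It reached 1 TPM in the drug libraries alone and so entered the fit only through the groups where it was high; its place among the 5 is not support for a change of the list. VPREB3 stood at 0.353 ± 0.611 TPM in untreated cells, 3.96 ± 1.14 at 72 h, 0.723 ± 0.970 in the control knockdown and 2.67 ± 0.760 in the labelled Aiolos libraries. Only at 72 h and in the labelled Aiolos group did all 3 libraries reach 1 TPM, so its calls are not used either. BLNK, an adaptor of B cell receptor signalling, rose from 20.3 ± 1.87 to 124 ± 3.64 TPM at 72 h (2.56 ± 0.06), and by 0.39 ± 0.06 in the labelled Aiolos libraries.

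The members of this list did not move as one. Their summed level was 733 to 758 TPM per library in untreated cells and 841 to 882 TPM at 72 h, and 598 to 630.1 TPM in the control knockdown and 792 to 844 TPM in the labelled Aiolos libraries. CD9, a tetraspanin, was the member highest in TPM at 72 h and rose in both comparisons (0.54 ± 0.04 and 0.85 ± 0.04), to 437 ± 16.1 and 513 ± 14.9 TPM. The transcription factor TCF3 (-0.49 ± 0.04 and -0.30 ± 0.04) and CD79B, a chain of the B cell receptor (-0.39 ± 0.07 and -0.68 ± 0.07), fell in both. LEF1 (-0.44 ± 0.04 and 0.95 ± 0.04) and SOX4 (-0.37 ± 0.1 and 0.86 ± 0.1) fell at 72 h and rose in the labelled Aiolos libraries. PAX5, the B lineage factor, had group means of at most 0.522 TPM, CD34 of at most 0.0234 TPM and MS4A1 (CD20) of at most 0.0158 TPM. MYB, a factor of progenitor cells, fell at 72 h from 26.9 ± 0.652 to 0.834 ± 0.127 TPM (-3.93 ± 0.09) and fell in the labelled Aiolos libraries (-1.46 ± 0.09). In those libraries 5 of the 11 rose and 3 fell, with a median of 0.31, beside 37.2% and 30.7% of all genes.

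Germinal centre genes, the other B cell stage with CD10, had 5 of 15 higher, and 7 lower at 72 h around a median of -0.43, beside 48.1% and 31.6% of all genes. In the labelled Aiolos libraries 7 rose and 6 fell (median 0.32), beside 37.2% and 30.7% of all genes. With the ARID2 hairpin 9 rose and 1 fell (median 0.31), beside 33.1% and 29.2% of all genes. BACH2, a repressor that holds back plasma cell differentiation, rose from 6.80 ± 0.544 to 27.8 ± 0.336 TPM at 72 h (1.88 ± 0.06) and rose in the labelled Aiolos libraries to 19.1 ± 1.20 TPM (1.21 ± 0.06). BCL6, a germinal centre factor, rose at 72 h (0.83 ± 0.13), in the labelled Aiolos libraries (0.81 ± 0.13) and with the ARID2 hairpin (0.87 ± 0.13). The cell cycle factor MYBL2 fell at 72 h (-3.53 ± 0.04), as did MYBL1 (-1.84 ± 0.09) and the adaptor STAP1 (-1.33 ± 0.11). The chemokine receptor CXCR4 fell at 72 h (-0.76 ± 0.06) and rose in the labelled Aiolos libraries (1.79 ± 0.06). The death receptor FAS did likewise (-1.14 ± 0.07 and 1.37 ± 0.07), and it also rose in the ARID2 knockdown (1.87 ± 0.07).

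Plasma cell genes had 10 of 17 higher and 5 lower at 72 h (median 0.40), and 5 higher and 11 lower in the labelled Aiolos libraries (median -0.71). Of all genes 48.1% and 31.6% passed at 72 h, near the share of this list, and 37.2% and 30.7% in the labelled Aiolos libraries. ITGB7, an integrin chain, rose in both (1.23 ± 0.04 and 0.96 ± 0.04). IRF4, the factor that plasma cells depend on, fell in both (-1.03 ± 0.04 and -2.20 ± 0.04). GPRC5D, a surface receptor targeted in myeloma, rose at 72 h (0.40 ± 0.06) and fell in the labelled Aiolos libraries (-2.04 ± 0.06). At 72 h DERL3, of the endoplasmic reticulum, rose (1.04 ± 0.05) and the surface receptor SLAMF7 fell (-0.92 ± 0.03).

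**Figure D4:**
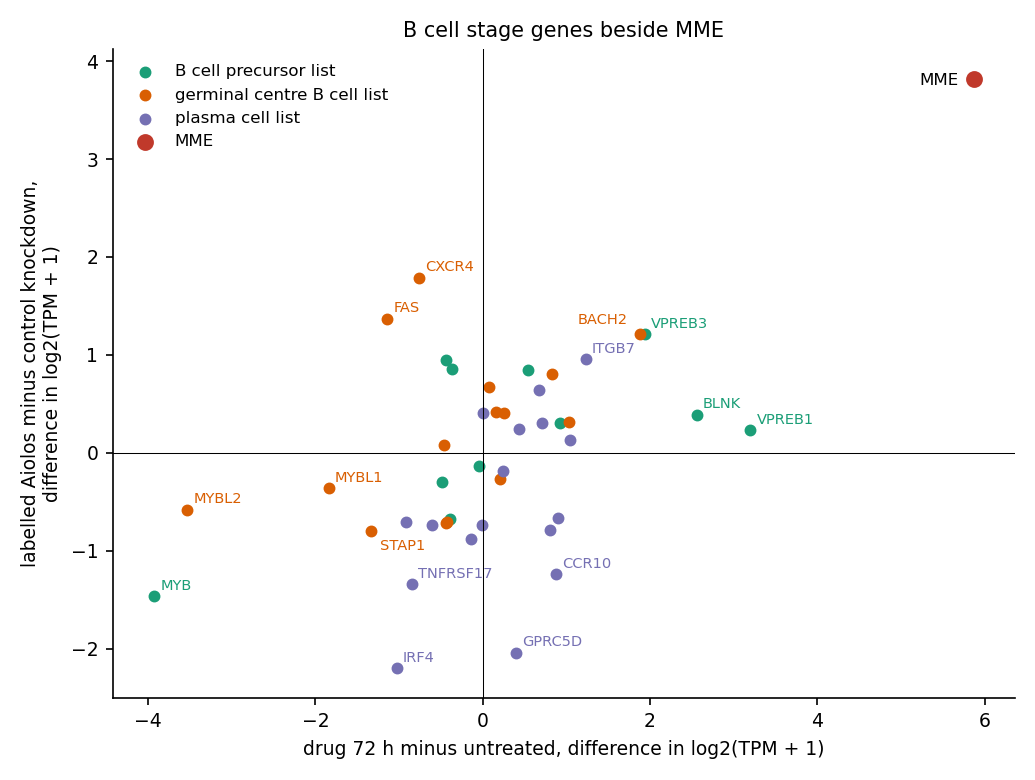
Difference in log2(TPM + 1) at 72 h of drug against untreated cells (horizontal) and in the labelled Aiolos libraries against the control knockdown (vertical) for tested genes of the 3 B cell stage lists and MME; genes past 1.1 in either are named. MME lies alone at 5.87 and 3.82, VPREB1 is high on the horizontal axis alone (3.20 and 0.23), and MYB is low on both (-3.93 and -1.46).

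Neutrophils, stromal cells and some epithelia also carry CD10, so their markers were read in every group. Of 13 granulocyte and monocyte markers 10 had a value, and together they summed to 0.962 to 3.38 TPM per untreated library. The sum was 5.48 to 7.78 TPM at 24 h, 7.33 to 12.3 at 48 h and 6.04 to 11.3 at 72 h, so it moved with MME under the drug. In the labelled Aiolos libraries, where MME was at least 156 TPM, the sum was 1.70 to 2.53 TPM, against 1.05 to 4.01 TPM in the control knockdown. The granulocyte-defining genes CSF3R, MPO, CXCR1 and CXCR2 had group means of at most 0.0953, 0.0378, 0.0823 and 0.0383 TPM. S100A9, another of the listed markers, passed as higher than in untreated cells at 48 h (1.23 ± 0.52). It did not pass at 24 h (1.07 ± 0.52), at 72 h (0.5 ± 0.52) or in the labelled Aiolos libraries (-0.92 ± 0.52). CD14 stood at 0.603 ± 0.242 TPM in untreated cells and 3.67 ± 0.882 TPM at 72 h, and the integrin ITGAM at 0.129 ± 0.0656 and 1.62 ± 0.254 TPM. Both entered the fit only through groups where they were high. ITGAM was highest in the ARID2 knockdown, at 2.17 ± 0.303 TPM, where MME was lowest. The part of such cells or genes in the level of MME was not tested. Stromal markers (7 of 8 with a value) summed to at most 1.89 TPM and the 6 epithelial markers to at most 3.39 TPM in a library.

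Genes beside MME on chromosome 3 were read to see whether its neighbourhood moved with it. Of the 5 listed genes on each side, 9 were tested, and at 72 h 5 were higher and 3 lower with a median of 0.28, against 0.15 for all genes. With 48.1% and 31.6% of all genes passing, these counts were near the background. The nearest, the phospholipase PLCH1 (155375580 to 155745067, minus strand), begins 192 kb beyond the end of MME and had a group mean of at most 0.127 TPM. On the other side the RNA helicase DHX36 (154272546 to 154324497, minus strand) ends 699.6 kb before MME and rose by 0.53 ± 0.05 at 72 h and 0.19 ± 0.05 in the labelled Aiolos libraries. ARHGEF26 (154121003 to 154257827, plus strand) fell from 7.38 ± 0.466 to 0.923 ± 0.267 TPM at 72 h (-2.13 ± 0.12) and fell by 0.68 in the labelled Aiolos libraries.

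The remaining neighbours moved by less than 1.1 on the log2 scale. SLC33A1 (155821024 to 155854456, minus strand), an acetyl-CoA transporter, rose at 72 h (1.08 ± 0.04) and fell in the labelled Aiolos libraries (-0.55 ± 0.04). GMPS (155870536 to 155944026, plus strand), a purine synthesis enzyme, fell in both (-0.98 ± 0.05 and -0.72 ± 0.05). KCNAB1 (156037701 to 156539138, plus strand), a potassium channel subunit, rose at 72 h (0.58 ± 0.14). C3orf33 (155762617 to 155806351, minus strand) fell at 72 h (-0.34 ± 0.14, adjusted p = 0.0287 by limma). Leaving out untreated replicate 2 (adjusted p = 0.109), 72 h replicate 1 (0.108) or 72 h replicate 3 (0.0869) ended that call. MBNL1 (152243828 to 152465780, plus strand) and RAP2B (153162270 to 153170620, plus strand) each rose at 72 h by at most 0.38 and fell in the labelled Aiolos libraries by at most 0.31. The purine receptor P2RY1 (152834693 to 152841439, plus strand) rose in the labelled Aiolos libraries (0.58 ± 0.12). In those libraries 2 of the 9 rose and 5 fell, beside 37.2% and 30.7% of all genes.

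**Figure D5:**
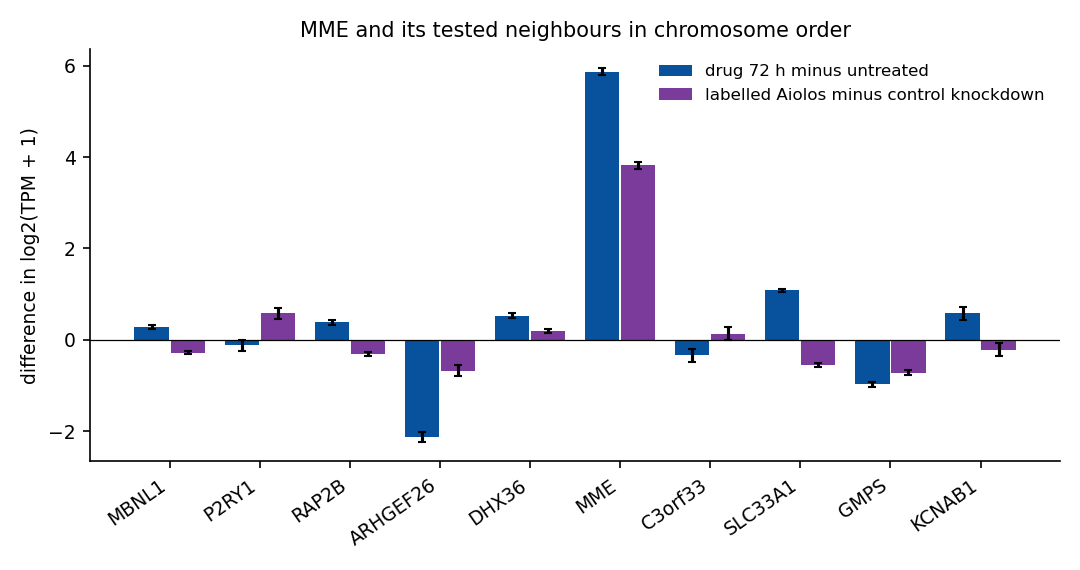
Difference in log2(TPM + 1) (vertical, bars ± 1 SE) for MME and the 9 tested genes beside it in chromosome order (horizontal), at 72 h of drug against untreated cells and in the labelled Aiolos libraries against the control knockdown. MME stands at 5.87 and 3.82, and the neighbours lie between -2.13 and 1.08.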

How the data were processed

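The authors deposited 1 table of TPM with 21 columns, each named as 1 library, and 17691 gene symbols, none repeated. Per the submitters' processing notes the genome build is hg38; aligner, quantifier, annotation and filters: not given in the sources used here. Per the labels' protocols, libraries were made with the TruSeq RNA kit, version 2.

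TPM was analysed as log2(TPM + 1) in limma 3.58.1 under R 4.3.3, on the 12559 genes that reached 1 TPM or more in 3 or more libraries. The 7 group means shared 1 estimate of spread, with empirical Bayes moderation and a trend (14 residual and 5.28 prior degrees of freedom). Tests were two-sided, adjusted by Benjamini-Hochberg over all genes of a contrast, with a threshold of 0.05. Errors of log2 differences are standard errors. Fold changes on this scale understate the change of low genes. The fit was tested on simulated data.

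MME and the gene lists were chosen with earlier results of these data known. Genes named were MME, the targeted genes, the M13 family, the 5 listed genes on each side of MME, the 10 genes most like MME and 3 most opposite, and from each list the 4 with the largest difference at 72 h and 2 in the labelled Aiolos libraries. COL1A1, EPCAM, CD2, CD3E and HBB were also chosen in this way and are not reported here. The lists of T and NK cell and of erythroid markers are not reported either. LAMB3, HSD11B1, KRT15, FRMD3 and the 12 genes that share the pattern of MME were named after their values were seen. So were CD9, TCF3, CD79B, LEF1, SOX4, BCL6, MSN and genes given at or near 0. SDC1, TNFRSF17, CD38, PRDM1, XBP1 and MZB1 were named as defining plasma cell markers. Counts over the list of partners of the CD10 tail are not reported here. Alternatives were another pseudocount, 2 filters, 2 scalings, a replicate block, fits of single contrasts and leaving out each library.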

Additional observations from a re-analysis of the deposited data

How the results depend on the processing

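Without any 1 library, the difference of MME between 48 and 24 h lay between 0.94 and 1.01, and control knockdown against untreated between 0.82 and 0.94. The difference of 72 from 48 h lay between -0.05 and 0.01, its sign turning without replicate 1 of the 48 h group (0.01). The differences from untreated cells and from the control knockdown moved by more than the replicate spread with a pseudocount of 0.1, to 5.13, 6.11 and 6.09 at 24, 48 and 72 h, -1.46 in the ARID2 knockdown and 3.93 in the labelled Aiolos libraries. They did so with quantile normalization at 24 and 72 h (4.81 and 5.73), and with median-of-ratios scaling at 72 h (5.72), which also moved the median of all genes at 72 h by -0.14. Without any 1 library the ARID2 difference ran from -1.38 to -1.20. The count of genes with the pattern that chose MME ran from 730 with quantile normalization to 969 without replicate 3 of the ARID2 knockdown.

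The choice of the 10 genes most like MME depended on the setting, in alternatives chosen after seeing the data: quantile normalization shared 6 of them, the 7 group means 5, the 9 knockdown libraries 1 and the 12 untreated and drug libraries 0. There PCDH12 came first (r = 0.998) and SCN9A ranked 94th (r = 0.990). Of 89 other differences, 1126 recomputed values kept their direction and side of the threshold, 15 lost and 4 gained a call, and ENPP1 at 72 h, which had not passed, turned sign with quantile normalization (-0.05). IKZF3 at 72 h lost its call with median-of-ratios scaling (0.05). With a replicate block MME differed by 0.98 between 24 and 48 h and 904 genes had the pattern, against 907. Same-numbered libraries of compared groups did not deviate together (correlations from -0.119 to 0.0526). With 3 libraries per group, this cannot tell whether they shared a culture or a day. Without read counts, how far depth limits the low values of MME is unknown.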
